A study of Eucalyptus urophylla with 24 samples.

Results

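The passage from mature to senescent leaf was followed in triploid *Eucalyptus urophylla*, a plantation tree, by RNA sequencing. All triploid libraries that the labels call senescent leaf (3) or mature leaf (3) were taken, 6 of the 24 libraries of a series that holds 4 stages (terminal bud, juvenile leaf, mature leaf and senescent leaf) of triploid and diploid plants. No treatment is named in the labels. All triploid libraries carry 1 plant code, and neither the labels nor the methods say whether the libraries of a group came from separate trees, so the p-values speak only for the variation among these libraries, which may be technical. Every gene of the table was used, 26033 in all, of which 19828 had enough reads to be tested. The total count was 38395755 to 57503260 in the senescent leaf libraries and 56793964 to 62708293 in the mature leaf libraries, and no library stood apart from its group (r = 0.965 to 0.978 across genes between replicate libraries, log2 scale).

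Leaf senescence is the last stage of leaf development. Chlorophyll and the proteins of the chloroplast are taken apart, and the nitrogen, phosphorus and other nutrients set free are carried to growing organs or to storage. In model plants the program is driven by transcription factors of the NAC and WRKY families and by ethylene, abscisic acid and jasmonate, and it is delayed by cytokinin. Levels are given as FPKM, fragments scaled to transcript length and to the number of mapped fragments, which corrects for gene length and library depth. Fold changes, senescent over mature, and adjusted p-values are from edgeR's quasi-likelihood test on the read counts of the 6 libraries, with Benjamini-Hochberg adjustment over the 19828 genes. A gene is called, and said to have risen or fallen, at an adjusted p under 0.05.

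Senescence changed the level of most tested genes. The called genes were 6184 higher (31.2% of those tested) and 6529 lower (32.9%) in senescent leaves, and 7115 were not called. A change of at least 2-fold was found for 2874 higher genes (14.5%) and 3863 lower genes (19.5%). The median log2 fold change over all genes was −0.08. Since a leaf is a mixture of cells, fewer cells of a type and less RNA per cell cannot be told apart in any of these values. These shares are the background against which each gene group below is to be read. In senescent leaves the 100 most abundant transcripts of a library held 21.1 to 23.4% of its summed FPKM, against 32.9 to 34.9% in mature leaves.

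The regulators of senescence held some of the largest rises among abundant genes. Of 27 tested genes in the list of senescence regulators, 20 rose and 2 fell, with a median log2 fold change of 1.05. Besides transcription factors, the list holds the protease *SAG12* and endonucleases. Its summed level was 9442 to 9814 FPKM in senescent leaves and 628.9 to 676.8 FPKM in mature leaves. Of these sums, *SAG12* (Eucgr.D00494) alone held a mean of 5339 FPKM in senescent leaves and 182 FPKM in mature leaves. *NAC29* (Eucgr.G02486, chromosome 7, 45699879 to 45701377), named for a factor that promotes leaf senescence in Arabidopsis, had 1788, 1822.6 and 1774 FPKM in senescent leaves, against 9.53, 9.54 and 8.78 FPKM in mature leaves. The groups lay far apart, and the gene was 193-fold higher (log2 fold change 7.59 ± 0.07, SE, adjusted p = 1.92e-10, edgeR). *NAC25* (Eucgr.A02070) had 1111, 1133 and 1099 FPKM in senescent leaves and 24.02, 25.5 and 27.8 FPKM in mature leaves, a 43.2-fold rise. *NAC92* (Eucgr.K01472), whose Arabidopsis namesake ORE1 drives age-dependent cell death, had 133, 149 and 136 FPKM in senescent leaves and 3.07, 3.63 and 3.57 FPKM in mature leaves, a 40.6-fold rise.

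*SAG12* (Eucgr.D00494, chromosome 4, 9125203 to 9126840) encodes a cysteine protease of senescing cells that is widely used as a marker of the process. It had 5340, 5480 and 5197 FPKM in senescent leaves and 174, 178.3 and 193 FPKM in mature leaves, so that it was 29.3-fold higher and already clearly present in mature leaves. Its neighbour Eucgr.D00496, with the same name, reached only 0.261 to 1.68 FPKM in senescent leaves and had no read in mature leaves. Several genes of the table share the names *SAG12* or *NAC29*, and how reads that match close copies were counted is not given in the sources used here.

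Members that carry the same name did not all move the same way. Another *NAC29* gene, Eucgr.B03208, averaged 30.8 ± 2.34 FPKM in senescent leaves and 0.1195 ± 0.0477 FPKM in mature leaves (SD, n = 3 each), while Eucgr.I01494, also of that name, fell 1.61-fold to 27.99 ± 0.919 FPKM, against 45.0 ± 0.195 FPKM in mature leaves. *JUNGBRUNNEN 1* genes, named for an Arabidopsis factor that lengthens leaf life, rose as well: Eucgr.A02028 averaged 101 ± 3.59 FPKM in senescent leaves and 23.3 ± 1.24 FPKM in mature leaves, and Eucgr.K01228 was 3.72-fold higher. *ETHYLENE INSENSITIVE 3* (Eucgr.J00631), the central factor of ethylene signalling, rose 1.74-fold. The other gene of the list that fell, endonuclease 1 (Eucgr.D00695), was under 1.40 FPKM in every library, and its call was lost when mature leaf library 1 or 2 or senescent leaf library 2 or 3 was left out (log2 fold changes −1.91, −1.19, −1.68 and −1.72).

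**Figure D1:**
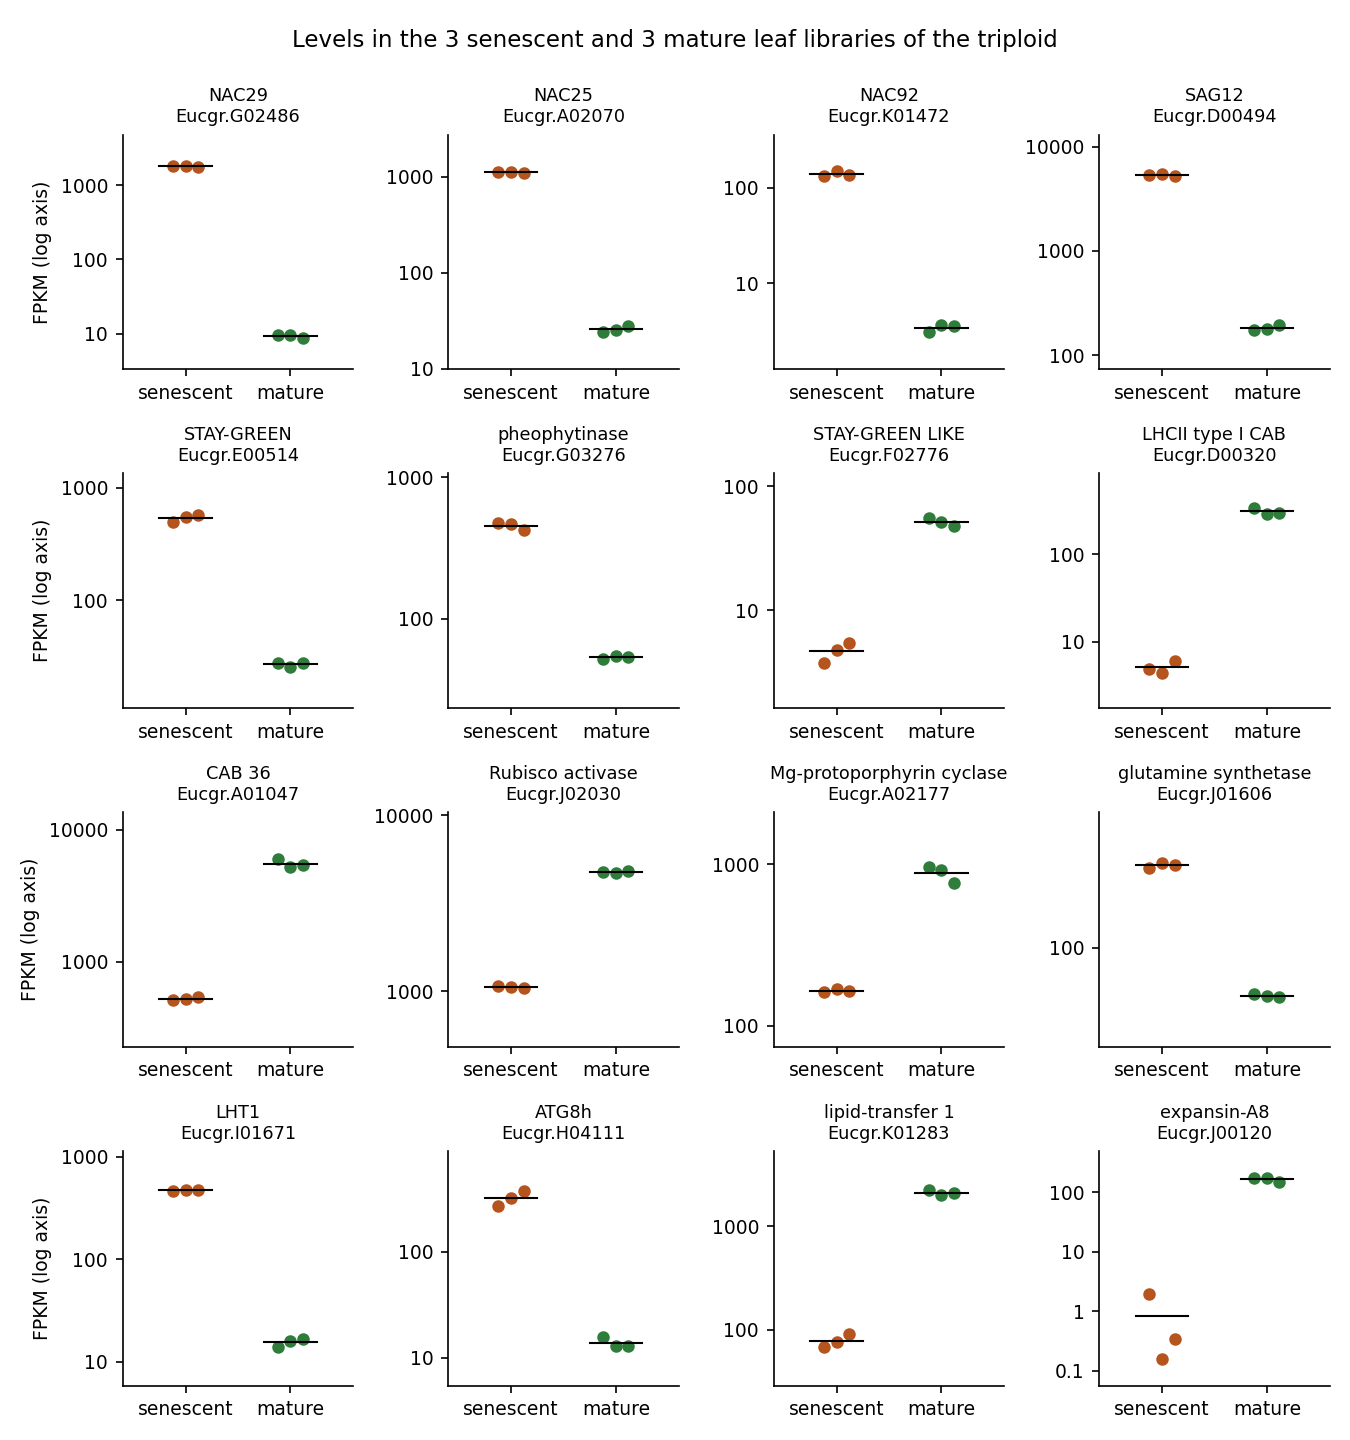
FPKM on a log axis in each of the 3 senescent (left) and 3 mature (right) leaf libraries of the triploid, for 16 genes, with each point 1 library and each line the group mean (CAB, chlorophyll a-b binding protein). The groups do not overlap in any panel, with *NAC29* at 1774 to 1822.6 FPKM in senescent leaves and 8.78 to 9.54 FPKM in mature leaves, and *expansin-A8* at 0.159 to 1.95 FPKM and 148 to 172 FPKM.

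In both large families of senescence factors more genes rose than fell. Of 59 tested NAC genes 30 rose and 11 fell (median log2 fold change 0.80), although without mature leaf library 2 the lower calls numbered 7. Of 48 WRKY genes 31 rose and 7 fell (median 0.65). *WRKY51* (Eucgr.C00077) averaged 488 ± 15.0 FPKM in senescent leaves and 45.5 ± 0.891 FPKM in mature leaves. *WRKY75* (Eucgr.B03520), whose Arabidopsis namesake promotes senescence and the response to phosphate shortage, was 6.99-fold higher. *WRKY71* (Eucgr.A01990) averaged 36.8 ± 1.42 FPKM in senescent leaves and 0.547 ± 0.0964 FPKM in mature leaves. Ethylene-responsive factors were mixed, with 24 higher and 17 lower of 71, but their most abundant member, *RAP2-3* (Eucgr.H03965), a factor of the low-oxygen response in Arabidopsis, had 1777, 2050 and 2161 FPKM in senescent leaves and 41.6, 31.7 and 49.0 FPKM in mature leaves. That is a 48.9-fold rise.

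Chlorophyll breakdown moved by single genes rather than as a list. Of its 10 members 4 rose and 6 fell. *STAY-GREEN* (Eucgr.E00514, chromosome 5, 4897917 to 4900042), which extracts magnesium from chlorophyll a and so begins its degradation, had 493, 553 and 573 FPKM in senescent leaves and 27.3, 25.6 and 27.8 FPKM in mature leaves (20.03-fold higher, adjusted p = 2.47e-09, edgeR). Pheophytinase Eucgr.G03276 (chromosome 7, 53373529 to 53377054), which removes the phytol tail in the next step, had 477, 466 and 422.2 FPKM in senescent leaves and 52.2, 54.8 and 53.4 FPKM in mature leaves, 8.49-fold higher. *NYC1* (Eucgr.C01035), the reductase that turns chlorophyll b towards chlorophyll a, rose 3.41-fold to 230 ± 15.0 FPKM, against 67.4 ± 3.20 FPKM in mature leaves. Each of these steps thus had a gene several-fold higher in senescent leaves.

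Of the later steps, red chlorophyll catabolite reductase (Eucgr.I00930) rose 1.31-fold to 25.2 ± 1.59 FPKM, against 19.2 ± 1.66 FPKM in mature leaves. Eucgr.B03924, described as hypothetical but annotated to chlorophyll catabolism and pheophorbide a oxygenase, the enzyme that opens the ring, rose 4.42-fold to 145 ± 8.39 FPKM, against 32.8 ± 1.27 FPKM in mature leaves. It was chosen after its values were seen.

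The 6 members that fell include close relatives of those that rose. *STAY-GREEN LIKE* (Eucgr.F02776) had 3.73, 4.82 and 5.46 FPKM in senescent leaves and 55.2, 51.5 and 47.9 FPKM in mature leaves, 11.04-fold lower. Both chlorophyllase-2 genes, for an enzyme that cleaves phytol from chlorophyll in vitro, fell: Eucgr.B01021 to 4.18 ± 0.810 FPKM, against 17.0 ± 2.16 FPKM in mature leaves, and Eucgr.B01022 to 0.142 ± 0.135 FPKM, against 6.59 ± 0.476 FPKM. *NOL* (Eucgr.G02650), the partner of *NYC1*, fell 2.11-fold. The other pheophytinase genes changed little. Eucgr.I02423 averaged 72.9 ± 1.92 FPKM in senescent leaves and 100 ± 6.31 FPKM in mature leaves, and Eucgr.B03607 averaged 122 ± 5.31 and 140 ± 6.15 FPKM. The call of Eucgr.B03607 was lost without mature leaf library 1 or 3 or senescent leaf library 1 or 2 (log2 fold changes −0.15, −0.18, −0.16 and −0.18).

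The photosynthetic apparatus fell nearly as a whole. All 16 light-harvesting proteins, which bind chlorophyll in the antennae, were lower, 15 of them at least 2-fold, with a median log2 fold change of −3.39. Their summed level was 2705 to 2984 FPKM in senescent leaves and 23230 to 26330 FPKM in mature leaves. This sum is of genes matched by description and leaves out the abundant Eucgr.E02381 below. The KEGG antenna proteins, which include that gene, summed to 11510 FPKM in senescent leaves and 44310 FPKM in mature leaves. Chlorophyll a-b binding protein 36 (Eucgr.A01047) had 514.4, 524 and 539 FPKM in senescent leaves and 6004, 5239 and 5381 FPKM in mature leaves, 10.6-fold lower. The deepest fall was in the type I protein of light-harvesting complex II Eucgr.D00320 (chromosome 4, 5509680 to 5510750), with 4.95, 4.38 and 6.05 FPKM in senescent leaves and 334, 287 and 297 FPKM in mature leaves (59.4-fold lower, adjusted p = 4.66e-09, edgeR). The antenna was not lost evenly. Eucgr.E02381, described as hypothetical, placed by its KEGG annotation among the antenna proteins and chosen after its values were seen, had 7519, 8619 and 9069 FPKM in senescent leaves, against 15785, 13408 and 13673 FPKM in mature leaves. It was 1.70-fold lower and stayed the most abundant antenna transcript.

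Of 35 photosystem subunits 34 fell, all 34 at least 2-fold (median −1.88). Photosystem I subunit O (Eucgr.B03824) averaged 172 ± 16.7 FPKM in senescent leaves and 2275 ± 234.2 FPKM in mature leaves, and oxygen-evolving enhancer protein 1 (Eucgr.I01025), part of the water-splitting site of photosystem II, 651 ± 24.4 and 2345 ± 101 FPKM. The 1 member that rose, Eucgr.D00177 (1.33-fold), is named as the root form of ferredoxin-NADP reductase. In the Calvin cycle, which fixes carbon dioxide, 21 of 24 genes fell and 1 rose (median −1.59). Eucgr.J01502 (chromosome 10, 18659949 to 18661840), described as hypothetical, annotated to the carbon-fixing enzyme Rubisco and chosen after its values were seen, had 5387, 5816 and 6093 FPKM in senescent leaves and 22925, 22464 and 22242 FPKM in mature leaves, 3.91-fold lower.

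Rubisco activase, which keeps the enzyme open for its substrate, gave 3 different sizes of fall. Eucgr.B02310 was 21.6-fold lower at 30.1 ± 1.93 FPKM, against 651 ± 9.63 FPKM in mature leaves. Eucgr.J02030 was 4.50-fold lower at 1059 ± 9.94 FPKM, against 4761 ± 52.0 FPKM. Eucgr.J01234 was 1.6-fold lower at 1379 ± 44.5 FPKM, against 2202 ± 26.4 FPKM, so that in senescent leaves it stood above Eucgr.J02030 and in mature leaves below it.

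Chlorophyll synthesis fell in parallel, with 17 of 19 genes lower and 2 higher (median −1.14). Magnesium-protoporphyrin IX monomethyl ester cyclase (Eucgr.A02177), a late step of the pathway, had 162, 169 and 164 FPKM in senescent leaves and 959, 920 and 767 FPKM in mature leaves. The large subunit of magnesium chelatase, ChlH (Eucgr.A02348), which opens the chlorophyll branch, was 4.72-fold lower, and protochlorophyllide reductase (Eucgr.F01098) 9.58-fold lower. A member that rose, glutamyl-tRNA reductase 1 (Eucgr.F02174), which begins the tetrapyrrole pathway, averaged 9.82 ± 0.698 FPKM in senescent leaves and 6.22 ± 0.188 FPKM in mature leaves. *GLK2* (Eucgr.K01056), named for a factor that activates chloroplast genes and chosen after its values were seen, had 11.3, 9.32 and 10.5 FPKM in senescent leaves and 50.8, 49.9 and 46.7 FPKM in mature leaves, 4.73-fold lower.

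Transcripts for plastid ribosomal proteins fell, while those for cytosolic ribosomal proteins changed little. Of 32 plastid ribosomal proteins 31 fell and none rose (median −1.28), from 50S protein L21 (Eucgr.F02613), 1.78-fold lower, to L11 (Eucgr.D01648), 5.24-fold lower. Of 114 cytosolic ribosomal proteins 52 fell and 3 rose, with a median of −0.19 that lies close to the −0.08 of all genes, and only 1 fell at least 2-fold. Without senescent leaf library 2 the lower calls numbered 34. Plastid proteases were lower too, at 30 of 41, but mostly by little: 11 passed 2-fold.

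**Figure D2:**
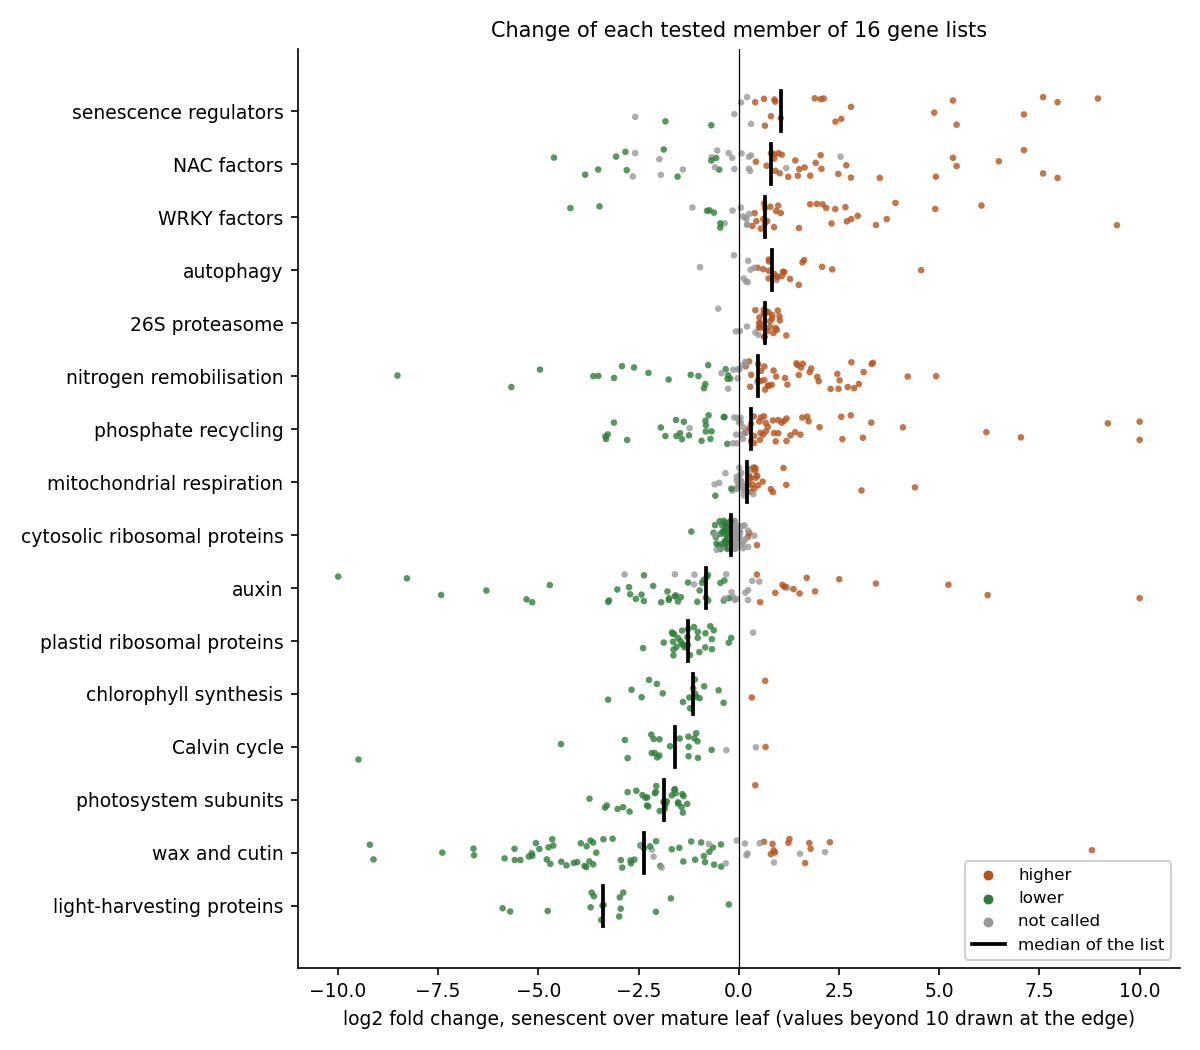
Log2 fold change, senescent over mature leaf, of each tested member (point) of 16 gene lists, coloured by its call, with the median of each list as a black line. Light-harvesting proteins (median −3.39) and photosystem subunits (−1.88) lie left of 0, senescence regulators (1.05) and autophagy (0.82) right of it, and the cytosolic ribosomal proteins (−0.19) close to it.

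Genes of autophagy and of the 26S proteasome were higher in senescent leaves. Autophagy, the delivery of cell contents to the vacuole, had 19 of 28 genes higher and none lower (median 0.82). The ubiquitin-like protein that coats autophagic membranes is encoded by *ATG8* genes. *ATG8h* (Eucgr.H04111) had 269, 324 and 376 FPKM in senescent leaves and 15.6, 12.8 and 12.9 FPKM in mature leaves, 23.4-fold higher, *ATG8f* (Eucgr.E01504) was 3.09-fold higher, and *ATG8C* (Eucgr.F03474) 1.39-fold higher. Of 33 subunits of the 26S proteasome, which degrades ubiquitin-tagged proteins, 27 rose and none fell. The rise was small and even, with a median log2 fold change of 0.64 and only 3 members past 2-fold. Proteasome subunit alpha type-6 (Eucgr.F04398), for example, averaged 191 ± 3.90 FPKM in senescent leaves and 116 ± 1.72 FPKM in mature leaves. The largest proteasome change, in regulatory subunit 4 (Eucgr.H00817), came with an uneven spread, at 114, 120 and 182 FPKM in senescent leaves and 61.0, 60.3 and 61.8 FPKM in mature leaves.

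Vacuolar and cysteine proteases changed in both directions, with 26 higher and 30 lower of 64, close to an even split. Their summed level was 17440 FPKM in senescent leaves and 6343 FPKM in mature leaves, and the most abundant members rose. Besides *SAG12*, cysteine proteinase COT44 (Eucgr.I00879) averaged 2442 ± 80.5 FPKM in senescent leaves and 1006 ± 25.5 FPKM in mature leaves, and aleurain (Eucgr.C00803), a vacuolar thiol protease, 2094 ± 46.0 and 1132 ± 11.6 FPKM. At the other end an aspartyl protease (Eucgr.J03131) fell 60.4-fold to 0.278 ± 0.160 FPKM, against 18.0 ± 1.13 FPKM in mature leaves.

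Genes matched by description to nitrogen remobilisation rose more often than they fell. Whether they carry nitrogen out of the leaf was not tested. Of 69 genes in this group 40 rose and 19 fell (median 0.49). Glutamine synthetase makes the amide by which nitrogen is exported, and its genes moved in both directions. Eucgr.J01606, named for the nodule isozyme, had 356, 388 and 375 FPKM in senescent leaves and 47.7, 46.3 and 46.0 FPKM in mature leaves, 7.98-fold higher. Eucgr.F02872, of the same name, was 2.01-fold lower at 712 ± 12.5 FPKM, against 1430 ± 14.5 FPKM in mature leaves. The plastid form, named leaf isozyme (Eucgr.B01163, chosen after its values were seen), was 8.65-fold lower at 28.7 ± 1.20 FPKM, against 248 ± 3.49 FPKM. The amino acid carrier *LYSINE HISTIDINE TRANSPORTER 1* (Eucgr.I01671) had 462, 474 and 472 FPKM in senescent leaves and 13.95, 15.8 and 16.6 FPKM in mature leaves, 30.3-fold higher. By contrast *AMINO ACID PERMEASE 6* (Eucgr.F02185) was 31.1-fold lower. A nitrate carrier of the NRT1/PTR family, *NPF2.9* (Eucgr.K02915), which loads nitrate into phloem in Arabidopsis, averaged 483 ± 11.2 FPKM in senescent leaves and 27.9 ± 0.739 FPKM in mature leaves, whereas *NPF4.6* (Eucgr.B00424) was 20.5-fold lower.

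Phosphate recycling showed a similar picture, with 43 of 79 genes higher and 23 lower (median 0.31). Purple acid phosphatases release phosphate from organic compounds. *PAP3* (Eucgr.B02657) had 261, 270 and 278 FPKM in senescent leaves and 2.12, 2.19 and 1.82 FPKM in mature leaves, 131-fold higher. *PAP22* (Eucgr.A01511) had 59.1, 64.03 and 53.3 FPKM in senescent leaves and no read in any mature leaf library. Against a floor of 3 counts per library, the limit that a count of 0 allows, it was at least 1928-fold higher. The phosphate transporter with the highest level (Eucgr.H03069) changed 1.24-fold.

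Of 107 genes for fatty acid beta-oxidation and the peroxisome 49 rose and 23 fell (median 0.31). The wider gene ontology term lipid catabolic process, chosen after its values were seen, went the other way, with 30 higher and 41 lower of 98. Non-specific phospholipase C1 (Eucgr.B02259) averaged 285 ± 16.7 FPKM in senescent leaves and 61.0 ± 10.6 FPKM in mature leaves, and the triacylglycerol lipase *SDP1* (Eucgr.A02287) was 67.1-fold higher from a level of 0.107 ± 0.0449 FPKM in mature leaves. Of the members that fell, long chain acyl-CoA synthetase 1 (Eucgr.H00913, 33.4-fold lower) is known for its part in wax and cutin synthesis. Catalase 3 (Eucgr.F01776), which removes the hydrogen peroxide that peroxisomes make, averaged 4039 ± 103 FPKM in senescent leaves and 1235 ± 23.9 FPKM in mature leaves. Mitochondrial respiration also rose more often than it fell (21 and 2 of 46), but with a median of 0.20. The lower calls numbered 1 without any 1 of the mature leaf libraries and 4 without senescent leaf library 1. Its largest change was in the alternative oxidase ubiquinol oxidase 3 (Eucgr.E01214), at 160 ± 10.9 FPKM in senescent leaves and 7.59 ± 1.23 FPKM in mature leaves.

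Genes of the leaf surface were mostly lower. Of 83 wax and cutin genes 57 fell, 49 of them at least 2-fold, and 12 rose (median −2.37). Lipid-transfer protein 1 (Eucgr.K01283), a secreted protein of the epidermis, had 68.7, 76.4 and 90.6 FPKM in senescent leaves and 2239, 1996 and 2097 FPKM in mature leaves, 26.9-fold lower. *ECERIFERUM 3* (Eucgr.C00214) and *ECERIFERUM 1* (Eucgr.F00422), which act together to make wax alkanes, were 13.0-fold and 16.3-fold lower. The 5 tested markers of the epidermis, of 9 in the table, all wax genes named *ECERIFERUM*, fell, and the summed level of the list was 26.04 to 31.97 FPKM in senescent leaves and 224.0 to 230.9 FPKM in mature leaves, with 4 markers at 0 in senescent leaves and 3 in mature leaves. A lower share of epidermal RNA and lower expression in that tissue cannot be told apart.

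Pectin enzymes gave 30 lower and 4 higher of 42 (median −1.71), and cell wall expansion 30 lower and 22 higher of 64. A pectinesterase (Eucgr.C00760) averaged 19.998 ± 2.32 FPKM in senescent leaves and 311 ± 6.72 FPKM in mature leaves. *Expansin-A8* (Eucgr.J00120, chromosome 10, 1492436 to 1494089), for a protein that loosens walls, had 1.95, 0.159 and 0.343 FPKM in senescent leaves and 172, 171 and 148 FPKM in mature leaves, 183-fold lower. The cell wall expansion list moved both ways, with 17 genes at least 2-fold higher (26.6%, against 14.5% of all genes). In that list 27 were at least 2-fold lower (42.2%, against 19.5%). Its summed level was 2151 FPKM in senescent leaves and 1537 FPKM in mature leaves. Members that rose were found in both lists. *Expansin-A4* (Eucgr.A00721) had 48.5, 61.2 and 67.5 FPKM in senescent leaves and 0.289, 0.879 and 0.314 FPKM in mature leaves, and pectinesterase 2 (Eucgr.E01463) was 161-fold higher. Of 22 water channels 10 fell and 5 rose. Those that fell include *PIP1-2* (Eucgr.G03037) at 176 ± 4.74 FPKM in senescent leaves and 815 ± 25.3 FPKM in mature leaves, and *TIP4-3* (Eucgr.I01369), 75.2-fold lower.

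Auxin genes fell more often than they rose, at 38 and 15 of 69 (median −0.82). The most abundant, auxin-binding protein ABP19a (Eucgr.F04417), had 579, 577 and 644 FPKM in senescent leaves and 3952, 3870 and 3958 FPKM in mature leaves. An exception was *GH3.1* (Eucgr.H02264), for an enzyme that conjugates auxin to amino acids, with 15.9, 19.4 and 19.3 FPKM in senescent leaves and no read in mature leaves, at least 811-fold higher against the same floor. Cytokinin genes were split, 14 higher and 18 lower of 40, although the response regulator *ARR17* (Eucgr.G03141) rose 87.2-fold. The abscisic acid list had 14 higher and 9 lower of 30, the jasmonate list 12 and 8 of 33, and the list of ethylene synthesis and signalling 8 and 4 of 21. Ethylene is made by ACC oxidase, whose members moved in opposite directions. Eucgr.K00750 averaged 45.0 ± 0.772 FPKM in senescent leaves and 3.29 ± 0.835 FPKM in mature leaves, and Eucgr.E03977 84.1 ± 4.55 and 217 ± 4.69 FPKM. Abscisic acid 8'-hydroxylase 1 (Eucgr.E01149), which inactivates the hormone, was 6.90-fold higher.

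Defence and secondary metabolism changed by single, strongly moving genes. Of 90 defence proteins 31 rose and 39 fell, yet their summed level was 5999 FPKM in senescent leaves and 1428 FPKM in mature leaves. Barwin (Eucgr.B02124), a chitin-binding protein, had 1412, 1774 and 1936 FPKM in senescent leaves and 84.4, 91.1 and 84.4 FPKM in mature leaves. A basic endochitinase (Eucgr.J02518) was 14.6-fold higher, and a thaumatin-like protein (Eucgr.H03864) averaged 192 ± 14.4 FPKM in senescent leaves and 0.429 ± 0.0824 FPKM in mature leaves. In the flavonoid list 34 rose and 25 fell of 73, with chalcone synthase 1 (Eucgr.H02828), the entry enzyme, at 778 ± 57.4 FPKM in senescent leaves and 132 ± 13.4 FPKM in mature leaves. Isoprene synthase (Eucgr.K00881), which makes the gas that eucalypt leaves emit, averaged 25.9 ± 0.722 FPKM in senescent leaves and 375 ± 3.90 FPKM in mature leaves.

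Of 19 tested genes matched by description to carotenoids 14 fell, among them carotenoid cleavage dioxygenase 4 (Eucgr.E01144), 8.51-fold lower. The wider KEGG pathway of carotenoid biosynthesis, chosen after its values were seen, was split, with 34 higher and 32 lower of 86. At least 2-fold higher were 27.9% of its genes and at least 2-fold lower 20.9%, against 14.5% and 19.5% of all genes. The gene ontology term carotenoid biosynthetic process had 5 higher and 11 lower of 16. In the description list the 1 member that rose had one of the largest changes of the table, and 2 rose without mature leaf library 1 or 2 or senescent leaf library 2. Beta-carotene 3-hydroxylase 1 (Eucgr.D01823), which makes xanthophylls, had 137, 139 and 137 FPKM in senescent leaves and 0.321, 0 and 0 FPKM in mature leaves.

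**Figure D3:**
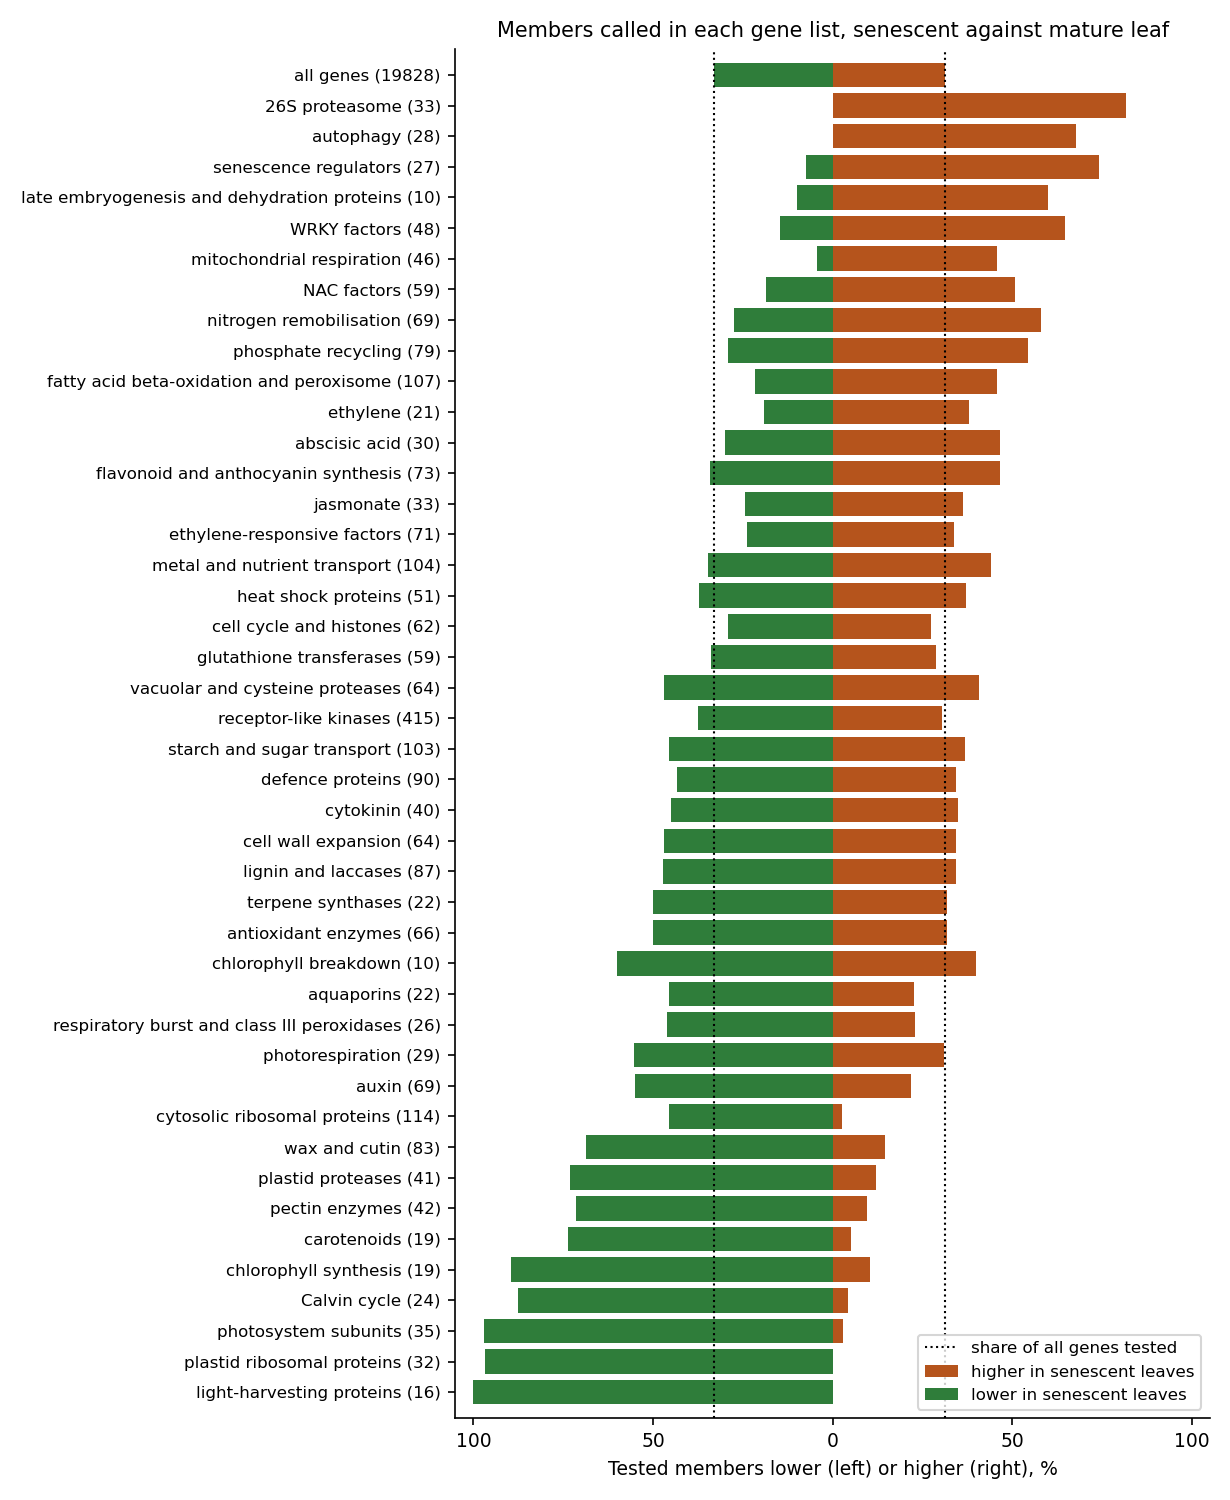
Share of the tested members of each of 43 gene lists that were higher (right) or lower (left) in senescent than in mature leaves, with the number of tested genes in parentheses and dotted lines at the shares of all genes tested (31.2% higher and 32.9% lower). The 26S proteasome (27 higher of 33) and autophagy (19 of 28) stand at the top below the bar of all genes, and light-harvesting proteins (16 lower of 16) at the bottom.

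Over all genes with an informative description and at least 20 FPKM in the higher group, 6 of the 8 largest rises had no read in mature leaves: *PAP22*, a sugar transporter of the ERD6 family (Eucgr.H03662, at least 1451-fold higher), S-norcoclaurine synthase 1 (Eucgr.A02982, at least 1164-fold), inositol oxygenase 1 (Eucgr.F03092, at least 743-fold), elicitor-responsive protein 1 (Eucgr.J00003, at least 600.2-fold) and an ethylene-responsive factor named *WRI1* (Eucgr.G02636, at least 557-fold). The remaining ones were beta-carotene 3-hydroxylase 1 and aldehyde oxidase GLOX (Eucgr.F01844), which had 258, 292 and 275 FPKM in senescent leaves and 0.227, 0.213 and 0.215 FPKM in mature leaves. The 8 largest falls included wall-loosening and pectin genes. They were the proline-rich protein DC2.15 (Eucgr.C02759, 288-fold lower), pectate lyase 8 (Eucgr.H00093), *expansin-A8*, *expansin-A10* (Eucgr.I01954), the *RADIALIS*-like genes Eucgr.I01273 and Eucgr.F01887, an ankyrin protein (Eucgr.J00178) and phylloplanin (Eucgr.H03941). Phylloplanin, a protein of the leaf surface, varied between mature leaf libraries, at 52.98, 38.6 and 166 FPKM, and stood at 0.712, 0.307 and 0.450 FPKM in senescent leaves.

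By KEGG pathway with at least 10 tested genes, the highest shares of genes at least 2-fold lower were in antenna proteins (17 of 20, 85.0%), photosynthesis (38 of 54, 70.4%), anthocyanin synthesis (16 of 35, 45.7%), porphyrin and chlorophyll metabolism (26 of 59, 44.1%), ganglio-series glycosphingolipids (16 of 37, 43.2%) and cutin, suberine and wax (16 of 39, 41.0%). The share of all genes was 19.5%. Porphyrin metabolism was not lower throughout. It holds *STAY-GREEN* and *NYC1*, and heme oxygenase 1 (Eucgr.C01176, chosen after its values were seen) averaged 447 ± 16.9 FPKM in senescent leaves and 127 ± 4.21 FPKM in mature leaves.

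The highest shares at least 2-fold higher, set against 14.5% of all genes, were in linoleic acid metabolism (11 of 25, 44.0%), arachidonic acid metabolism (18 of 43, 41.9%), globo-series glycosphingolipids (4 of 12, 33.3%), autophagy (15 of 46, 32.6%), brassinosteroid synthesis (7 of 22, 31.8%) and flavonoid synthesis (32 of 101, 31.7%). The genes behind a pathway name need not be those of a plant pathway. Linoleic and arachidonic acid metabolism share cytochrome P450 genes such as Eucgr.B00205, at 236 ± 8.79 FPKM in senescent leaves and 0.937 ± 0.149 FPKM in mature leaves. The globo series holds alpha-galactosidases such as Eucgr.J00326, 6.48-fold higher, and brassinosteroid synthesis holds genes named CYP749A22, such as Eucgr.C04097, 7.58-fold higher. These were chosen after their values were seen.

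Among gene ontology terms, purine nucleobase transport (7 of 10 genes at least 2-fold higher), negative regulation of leaf senescence (7 of 10) and amino acid transmembrane transport (24 of 49, 49.0%) stood high, as did regulation of photomorphogenesis and regulation of cell size (56.2% each) and regulation of protein serine/threonine phosphatase activity (53.5%). The first includes the adenine and guanine carrier *AZG1* (Eucgr.J00134), at 366 ± 17.4 FPKM in senescent leaves and 62.9 ± 4.44 FPKM in mature leaves, and purine permease 3 (Eucgr.F00390), 28.9-fold higher, both chosen after their values were seen. Light harvesting in photosystem I (18 of 20 at least 2-fold lower, 90.0%), cutin biosynthetic process (10 of 12, 83.3%), chloroplast accumulation movement (8 of 10, 80.0%) photosynthetic electron transport in photosystem I (78.6%), the photosynthetic electron transport chain (76.5%) and pectin catabolic process (9 of 12, 75.0%) stood high among the falls. The term leaf senescence itself had 39 genes higher and 20 lower of 87. At least 2-fold higher were 24.1% of its genes and at least 2-fold lower 16.1%, against 14.5% and 19.5% of all genes. The term holds both *NAC29* and Rubisco activase.

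Markers of leaf tissues were read as a check of the labels. The 13 tested markers of senescent leaves gave 9 higher and 3 lower, with a summed level of 7760 to 8085 FPKM in senescent leaves and 322.3 to 335.3 FPKM in mature leaves, and those of mesophyll gave 24 lower of 25, with 5258 to 5506 FPKM and 31160 to 34380 FPKM. Both lists moved as the labels imply. Phloem markers summed to 929.3 to 1053 FPKM in senescent leaves and 511.9 to 515.7 FPKM in mature leaves, with 5 higher and 11 lower of 21. Xylem markers summed to 39.0 to 40.8 FPKM and 89.6 to 102.6 FPKM, with 5 lower of 5, or 3 without mature leaf library 2. Guard cell markers summed to 356.3 to 370.4 FPKM and 281.2 to 297.2 FPKM, with 5 higher and 3 lower of 15. Markers of dividing cells summed to 45.5 to 53.1 FPKM and 42.1 to 47.7 FPKM, with 3 higher and 3 lower of 7. The part of tissue composition in the gene group changes above was not tested.

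Set beside the earlier stages of the triploid, some genes with large rises in senescence stood far lower in buds and juvenile leaves as well. They were picked with their rise over mature leaves known, and other senescence regulators are not shown over the stages. From terminal bud through juvenile and mature to senescent leaf, *NAC29* (Eucgr.G02486) averaged 6.27, 3.02, 9.28 and 1795 FPKM, *STAY-GREEN* 26.5, 16.5, 26.9 and 540 FPKM, and *SAG12* 6.41, 0.672, 182 and 5339 FPKM. Chlorophyll a-b binding protein 36 was highest in mature leaves, at 1278, 3682, 5541.1 and 526 FPKM, as was Rubisco activase Eucgr.J02030, at 109, 1072, 4761 and 1059 FPKM. *GLK2* (Eucgr.K01056) averaged 21.1, 56.4, 49.1 and 10.4 FPKM. Lipid-transfer protein 1 was highest in buds and lower at each later stage, at 9568, 6736, 2111 and 78.6 FPKM. These mature and senescent libraries are those of the comparison above, and no test was made.

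**Figure D4:**
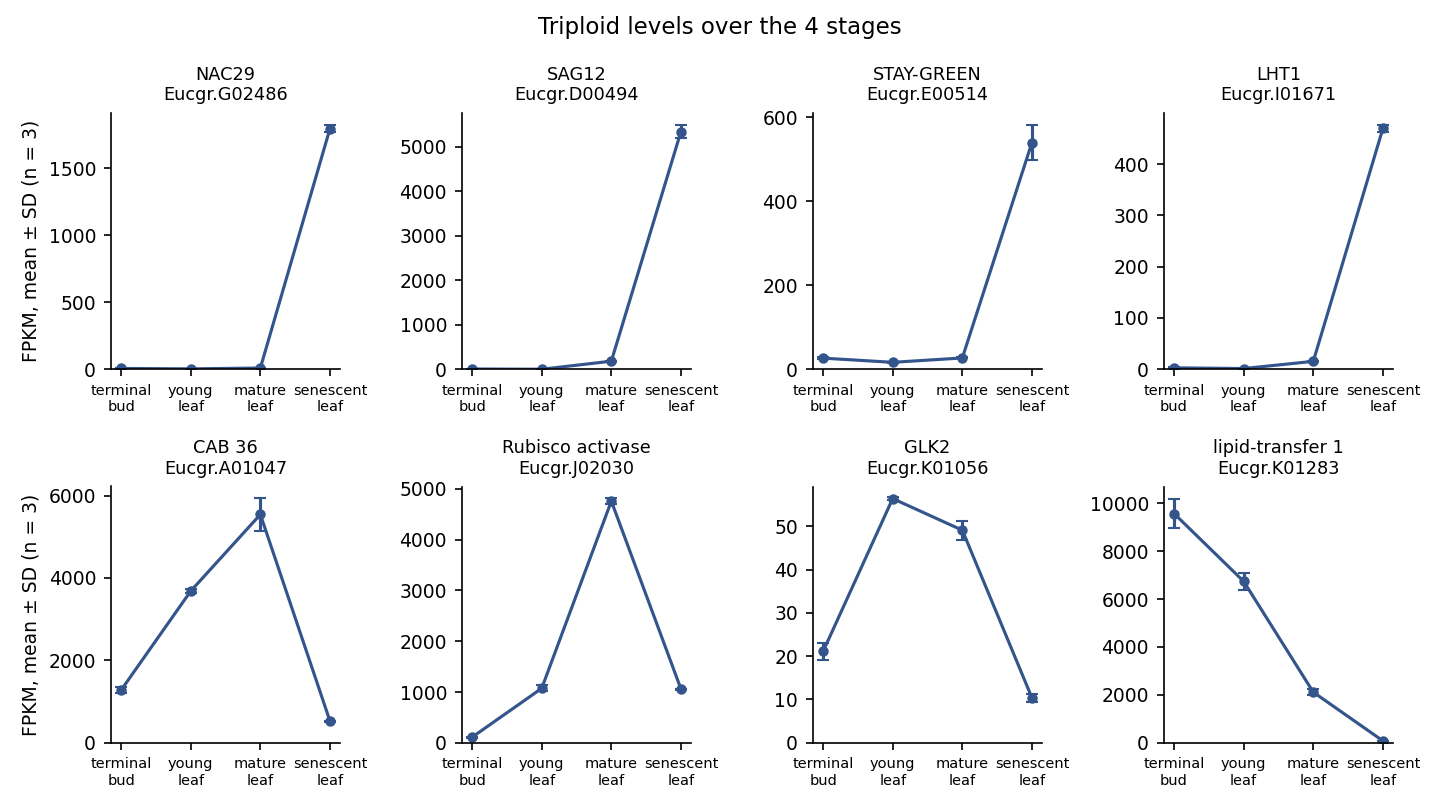
Mean FPKM ± SD of 3 libraries at each of the 4 triploid stages, in order of leaf age, for 8 genes. *NAC29*, *SAG12*, *STAY-GREEN* and *LHT1* (lysine histidine transporter 1) peak in senescent leaves, chlorophyll a-b binding protein 36 (5541.1 FPKM) and Rubisco activase (4761 FPKM) in mature leaves, and lipid-transfer protein 1 (9568 FPKM) in terminal buds.

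The same passage in the diploid shows where the triploid differs. The change from mature to senescent leaf, on the log2(FPKM + 1) scale, was compared between the ploidies with limma over 12 libraries, and differed for 6294 of 17896 genes (35.2%), with the triploid change above the diploid one for 3269 and below it for 3025. In the diploid, too, the libraries carry 1 plant code, so ploidy and plant cannot be told apart. Light-harvesting proteins fell further in the triploid, with a median change of −3.38 in the triploid and −2.42 in the diploid, and the difference was called for 15 of 16, each with the triploid change below the diploid one. The same direction was called for 15 of 19 chlorophyll synthesis genes, 18 of 32 plastid ribosomal proteins and 19 of 41 plastid proteases, and the opposite one for 1, 1 and 0 of them.

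The relative rise of the leading chlorophyll breakdown genes was smaller in the triploid. *STAY-GREEN* (Eucgr.E00514) changed by 4.27 in the triploid and 4.84 in the diploid (difference −0.57), and pheophytinase Eucgr.G03276 by 3.06 in the triploid and 4.11 in the diploid (difference −1.05). *NYC1* (Eucgr.C01035) changed by 1.75 in the triploid and 2.48 in the diploid (difference −0.73). Senescent levels were not lower in the triploid for Eucgr.G03276 (455 FPKM, against 435 FPKM in the diploid) and *NYC1* (230 and 189 FPKM). Their mature levels were 53.5 and 67.4 FPKM in the triploid, against 24.3 and 33.1 FPKM in the diploid. *STAY-GREEN* was lower in the triploid at both stages, at 540 and 26.9 FPKM, against 1013 and 34.4 FPKM in the diploid. None of the 10 genes had a triploid change called above the diploid one, and 6 had it called below. One of these, chlorophyllase-2 Eucgr.B01022, was at 0.515 FPKM in mature and 0 in senescent leaves of the diploid, where this scale leaves little room for a fall. The list of senescence regulators, which includes *SAG12*, went the other way more often, with 11 of 24 above and 2 below. *SAG12* (Eucgr.D00494) averaged 5339 FPKM in senescent and 182 FPKM in mature leaves of the triploid, and 28750 and 1338 FPKM in those of the diploid, so that its level was lower in the triploid at both stages although its relative rise was larger (difference 0.45).

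**Figure D5:**
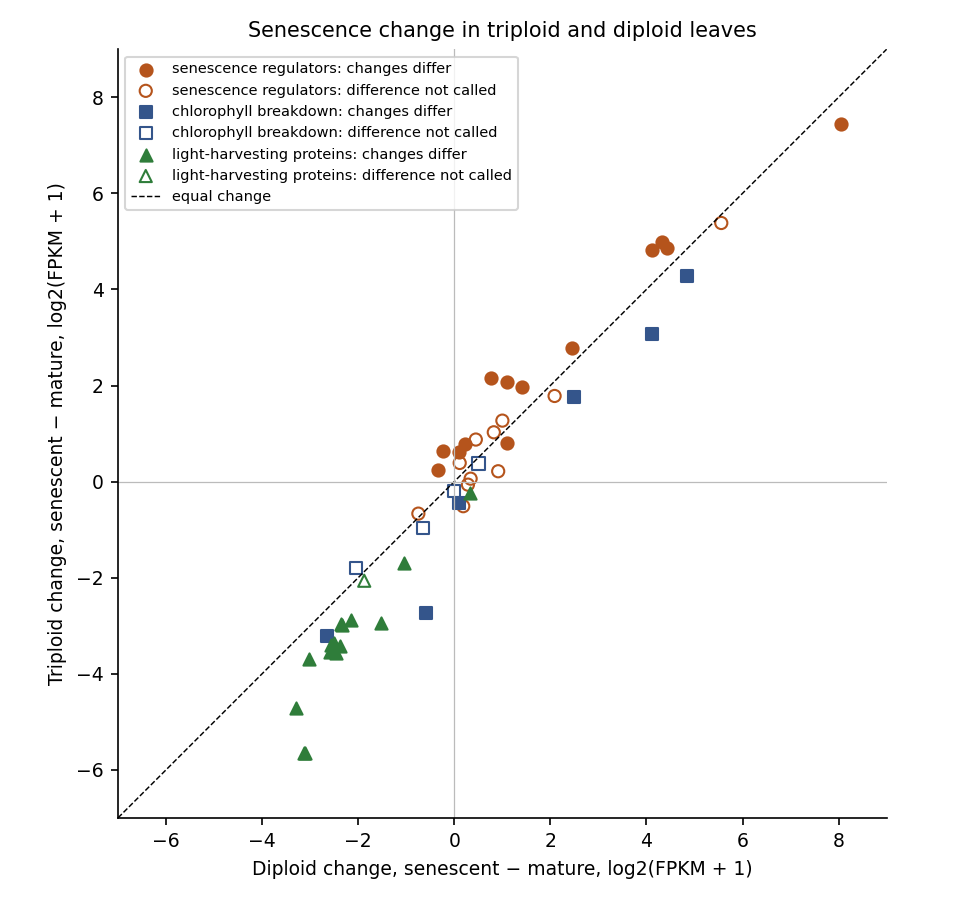
Change from mature to senescent leaf, log2(FPKM + 1), in the triploid (vertical axis) against the diploid (horizontal axis) for 50 genes of 3 lists, with filled symbols where limma called the changes different and a dashed line of equal change. Light-harvesting proteins lie below the line (15 of 16 called). In the list of senescence regulators 11 of 24 genes, *SAG12* among them, are called above it.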

How the data were processed

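RNA was sequenced from 3 libraries of each of 8 groups, 4 stages in triploid and diploid plants. The submitters' processing notes name HISAT2 2.0, StringTie 1.3.0 and Bowtie 0.12.2. They also name a mouse build, whereas gene IDs and coordinates are those of *Eucalyptus grandis*, so coordinates are printed as deposited, and their build is not given in the sources used here. For each gene the authors deposited read counts of the triploid and most diploid libraries, not normalized, and FPKM of all libraries, normalized by the authors for length and depth. How reads shared between close copies were counted, and whether strand was used, is not given either. In the table, 2 columns of per-sample values matched no library and were not used, which is why diploid leaves were compared by FPKM.

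Counts of the 6 libraries were fitted with edgeR 4.0.16 (R 4.3.3; quasi-likelihood test, TMM factors, filterByExpr), with p-values adjusted by the Benjamini-Hochberg method and a gene called under 0.05. The ploidy difference was tested with limma 3.58.1 on log2(FPKM + 1), leaving out genes whose mean was under 0.5 FPKM. DESeq2 1.42.0 and limma on other scales, other filters, a replicate block and leaving out each library were alternatives. An FPKM at or under 0.0001 was read as 0. The fits were tested on simulated data with known changes. Of 43 function lists and 7 marker lists, matched by gene description, the text names up to 3 members with the highest FPKM, the largest called change each way among members of at least 5 FPKM, and the whole of the lists of chlorophyll breakdown and regulators where they bear on the result. Over all genes it names the 8 largest called changes each way of at least 20 FPKM. KEGG pathways and gene ontology processes are the 6 with the highest shares each way, of at least 10 tested genes. The table does not separate processes from functions and components, so processes were picked by name and other terms left out, some with higher shares. Members and lists were chosen with earlier results of these data known.

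Replicate numbers were checked for pairing: the deviations of same-numbered senescent and mature leaf libraries correlated at 0.02, 0.003 and 0.04. No sign of pairing by number was seen, but with so few libraries this check could not exclude a weak one. Replicate libraries of 1 group differed by more than sampling noise (chi-square per gene of at least 21.1).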

Additional observations from a re-analysis of the deposited data

Results flagged for a closer look

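The change from mature to senescent leaf differed between triploid and diploid, by limma's test of the difference on log2(FPKM + 1) with adjustment over all genes, for 19 of the 34 tested genes of the lists of chlorophyll breakdown and senescence regulators. Values are the triploid change minus the diploid change. In chlorophyll breakdown the 6 differences were all below 0. They were −2.15 for chlorophyllase-2 Eucgr.B01022, −1.05 for pheophytinase Eucgr.G03276, −0.73 for *NYC1* Eucgr.C01035, −0.58 for *STAY-GREEN LIKE* Eucgr.F02776, −0.57 for *STAY-GREEN* Eucgr.E00514 and −0.55 for pheophytinase Eucgr.I02423. Diploid Eucgr.B01022 was at 0.515 FPKM in mature and 0 in senescent leaves, so its diploid change, and with it the difference, is limited by the added 1 FPKM.

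In the list of senescence regulators, which includes *SAG12*, 11 differences were above 0. They were 1.38 and 0.97 for *JUNGBRUNNEN 1* Eucgr.F01463 and Eucgr.A02028, 0.87 for *WRKY70* Eucgr.J00106, 0.70 for *NAC29* Eucgr.B03208, 0.67 and 0.57 for *NAC92* Eucgr.K01472 and Eucgr.A02074, and 0.57 for *NAC25* Eucgr.D00665. The others were 0.55 and 0.33 for *NAC83* Eucgr.H03387 and Eucgr.B03537, 0.52 for *WRKY53* Eucgr.E00850 and 0.45 for *SAG12* Eucgr.D00494. Eucgr.B03208 was at 0.1195 FPKM in mature leaves of the triploid and at 0 in those of the diploid, so that its difference reflects the senescent levels (30.8 FPKM in the triploid and 16.5 FPKM in the diploid) and not a larger fold rise. Below 0 were *NAC29* Eucgr.G02486 (−0.60) and *ETHYLENE INSENSITIVE 3* Eucgr.J00631 (−0.30). The background share of called differences was 35.2% of all genes, and an effect of ploidy and one of the individual plants cannot be told apart.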

How the results depend on the processing

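Of the counts over all genes, 75 of 76 values under the alternatives stayed within 1.5 times the reported count. The exception was the number of genes at least 2-fold lower, 2565 with limma on log2(FPKM + 1), against 3863 as reported. That scale lowers the fold change of genes with little expression. Leaving out 1 library at a time gave 5797 to 5972 higher and 5810 to 6601 lower genes, 2783 to 2893 and 3595 to 4096 at least 2-fold higher and lower, and 5478 to 6287 genes whose change differed between ploidies. With the replicate number as a block, although no sign of pairing by number was seen, the counts were 5850 higher and 6045 lower. They were 2798 and 3668 at least 2-fold higher and lower, and 6429 for the ploidy difference. Of the counts over lists, 1462 of 1500 stayed within 1.5 times and 38 moved. Of the values of named genes, 1842 of 1852 kept direction and call, 10 lost the call and none reversed. These 10 belong to pheophytinase Eucgr.B03607 (−0.20 with the block) and endonuclease 1 Eucgr.D00695 (−1.62 with the block). Genes with few reads are limited by depth: 6205 genes were not tested, of which 3740 had no read in the 6 libraries.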

Other observations

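Late embryogenesis and dehydration proteins, which protect cells during water loss, had 6 higher and 1 lower of 10 tested genes, with a median log2 fold change of 0.86. Without mature leaf library 2 none was lower. *SAG21* (Eucgr.H01103), chosen after its values were seen, had 1295, 1645 and 1842 FPKM in senescent leaves and 180, 148 and 163 FPKM in mature leaves. Class III peroxidases and respiratory burst oxidases had 6 higher and 12 lower of 26, and heat shock proteins 19 each way of 51. Of 22 tested terpene synthases 7 rose and 11 fell (median −2.88). Their summed level was 62.0 FPKM in senescent leaves and 393.9 FPKM in mature leaves. Most of the mature leaf sum was that of isoprene synthase (Eucgr.K00881), so the lower sum is mainly the fall of that gene. The sum of the other terpene synthases was not compared. The lower calls numbered 7 with a filter of at least 50 counts in 3 libraries, and 5 with limma on log2(FPKM + 1). A member that rose, germacrene D synthase (Eucgr.E00414), had no read in mature leaves and was at least 289-fold higher in senescent leaves.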
